A study of Homo sapiens with 30 samples.

Results

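TCF4, IRF4, IRF8, SEL1L3, CD38, CD1D, BCL11A, RUNX2, SPIB and ID2 are 10 genes listed for plasmacytoid dendritic cells and B-lineage cells. ID2 is among them as an inhibitor of TCF4. The 10 genes were picked by name, with earlier results in view, because TCF4, IRF4, CD38 and SEL1L3 were higher in MV4-11 cells without MPC1. The values of that contrast therefore chose the genes and are described here without a test. All 10 were found, of 58051 genes listed in the knockout series and 60675 in the overexpression series, and all 10 passed the filter on low counts in both series.

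The study sequenced RNA of human cell lines from acute myeloid leukemia (AML), with 10 groups of 3 libraries each. MV4-11 and Molm-14 carry an internal tandem duplication of the FLT3 receptor (FLT3-ITD), and THP-1 is a monocytic AML line without it. In the knockout series, MV4-11 KO, Molm-14 KO and THP-1 KO cells had MPC1 deleted with a lentiviral CRISPR/Cas9 vector that held 1 guide and a GFP marker. MPC1 is a subunit of the carrier that moves pyruvate into mitochondria. In the overexpression series, MV4-11 OE and Molm-14 OE cells expressed the miR-1 hairpin from a lentiviral vector with an EF1α promoter, GFP and sequence of the MIR1-2 host gene. MV4-11 EV, Molm-14 EV and THP-1 EV cells carried an empty vector, and each KO or OE group was set against the EV group of its own line and series. The labels do not say whether replicates were separate transductions, clones or cultures, so p-values measure the spread between these libraries, which may be technical. That spread was estimated over all groups of a series and not within 1 line.

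TCF4, also called E2-2, is an E protein, a helix-loop-helix factor that binds E-box DNA and maintains the plasmacytoid dendritic state. ID2 has the dimerization domain but does not bind DNA, and it holds E proteins inactive. IRF4 and IRF8 are interferon regulatory factors that bind DNA poorly alone and team up with the ETS factors PU.1 (SPI1) or SPIB on composite sites. IRF4 serves plasma cells and conventional dendritic cells, while IRF8 drives monocyte and dendritic fates. BCL11A is a zinc finger factor that B-cell and plasmacytoid dendritic development need and that represses fetal globin, and RUNX2 is a Runt-domain factor that plasmacytoid dendritic cells need to leave the bone marrow. At the surface, CD38 is an NAD glycohydrolase and CD1D presents lipids to natural killer T cells, while SEL1L3 is a membrane protein related to SEL1L whose role is less clear.

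All positions are whole genes in GRCh38. TCF4 (ENSG00000196628) lies at chr18:55222185-55664787 on the minus strand and its inhibitor ID2 (ENSG00000115738) at chr2:8678845-8684461 on the plus strand. IRF4 (ENSG00000137265, chr6:391739-411443), IRF8 (ENSG00000140968, chr16:85899116-85922606) and their partner SPIB (ENSG00000269404, chr19:50418938-50431314) are on the plus strand. BCL11A (ENSG00000119866) is at chr2:60450520-60554467 on the minus strand and RUNX2 (ENSG00000124813) at chr6:45328157-45664349 on the plus strand. Of the surface genes, CD38 (ENSG00000004468, chr4:15778275-15853232) and CD1D (ENSG00000158473, chr1:158178030-158186427) are on the plus strand and SEL1L3 (ENSG00000091490, chr4:25747433-25863760) is on the minus strand.

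Because the overexpressed RNA has a defined seed, the sequences that bear on it are shown first. Capitals mark the seed (bases 2 to 8) in miR-1 and the matching bases in each 3′ UTR.
hsa-miR-1-3p: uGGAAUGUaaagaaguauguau
BCL11A: tctatcaccctACATTCCAgcatcttacc
IRF8: tgtcatgaaatCATTCCAgatacctctt
The mature miR-1 sequence is from RefSeq, and its genomic copies lie at chr18:21829015-21829036 on the minus strand (MIR1-2) and chr20:62554351-62554372 on the plus strand (MIR1-1). BCL11A held 1 8mer match (ACATTCCA) and IRF8 held 1 7mer-A1 match (CATTCCA). The printed stretches around them are chr2:60457722-60457750 on the minus strand and chr16:85921990-85922017 on the plus strand, both in GRCh38. No match to ACATTCCA, ACATTCC or CATTCCA was found in the canonical 3′ UTR of the other 8 genes, TCF4 and RUNX2 among them. Of 19571 canonical 3′ UTRs, 4.82% held the 8mer and 19.9% held any of these matches. A match of letters is a description and not a proven site, and the lack of one says only that these letters are not in that 3′ UTR.

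For the IRF members, RefSeq promoter windows (250 bases before to 50 after a start, GRCh38) were searched on both strands for the ETS-IRF composite (GGAA, any 2 bases, then GAAA), the IRF pair (GAAA, any 2 bases, then GAAA), the PU.1 core GAGGAAGT, the interferon-gamma site TTCNNNGAA and the E-box CANNTG. Among the 10 genes, the CD38 window alone held the composite. It begins 43 bases before the start of the canonical transcript and is shown in capitals.
CD38: gttgggggtgGGAAGGGAAAcagagaaaag
This stretch is chr4:15778275-15778304 on the plus strand. It lies inside the whole-gene span of CD38, which begins upstream of the canonical start. The composite was in 2.82% of 35116 windows, the IRF pair in 3.57%, the PU.1 core in 2.59%, the interferon-gamma site in 7.66% and the E-box in 68.7%. None of the 10 windows held the IRF pair, the PU.1 core or the interferon-gamma site. TCF4, IRF4, CD1D and BCL11A had no E-box in theirs. Only 1 window per gene was searched, the one nearest the canonical start, of 10 listed for TCF4, 5 for BCL11A and 2 for CD1D. Their other windows were not searched. The IRF8 window lay 3668 bases from the start of its canonical transcript and so covers another start.

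Libraries held 15543301 to 20939985 counts when they belonged to the overexpression series, and 5339360 to 9106478 when they belonged to the knockout series. Levels are given as CPM, the count scaled to a common library size, and are compared only within a series. MPC1 was lower in every KO library: from 53.7 to 58.3 CPM in MV4-11 EV to between 23.5 and 26.0 in MV4-11 KO, from 72.9 to 80.0 in Molm-14 EV to between 33.2 and 41.0 in Molm-14 KO, and from 90.6 to 100.3 in THP-1 EV to between 50.3 and 58.9 in THP-1 KO. In the overexpression series, MV4-11 OE replicate 1 and MV4-11 EV replicate 3 stood apart by their interferon-stimulated genes, with a mean of 5.33 and 3.63 log2 CPM over 27 such genes against 2.11 to 2.32 in the other 4 MV4-11 libraries.

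The defining surface markers of plasmacytoid dendritic and B cells were at or near 0, while other genes of both lists were expressed. CLEC4C had at most 2 counts in any library, LILRA4 at most 10, MS4A1 at most 1, and TCL1A had 0 in all 30. The B-cell receptor gene CD79A reached 1.00 CPM. Among the B lineage genes 4 to 7 of 21 had at least 1 CPM in a group, and PAX5, a B-lineage factor, had 104 to 119.6 CPM in Molm-14 EV of the overexpression series and 37.3 to 55.8 CPM in Molm-14 EV of the knockout series. Among 24 plasmacytoid dendritic genes 11 to 14 had at least 1 CPM in a group, such as UGCG, a glycolipid synthase, with a mean of 807 CPM in MV4-11 EV of the overexpression series, and PLD4, an endolysosomal exonuclease, with 205 CPM in THP-1 EV. IL3RA, present on plasmacytoid and myeloid cells, had 15.04 to 63.9 CPM, and the myeloid surface gene CD33 had 48.2 to 179.5 CPM. The 10 genes are therefore treated as a list of genes and not as a cell state. In bulk RNA, fewer cells that express a gene and less RNA per cell cannot be told apart.

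Levels between genes were compared as CPM per kilobase of exon. The length was the union of all annotated exons of a gene. It was 29166 bases for TCF4 and 24514 for BCL11A, and from 2213 (ID2) to 8192 (RUNX2) for the others. A single transcript can be much shorter than this union, so the places of TCF4 and BCL11A in the order depend on this choice of length. IRF8 was the highest of the 10 in all 10 groups, for example 101 ± 10.2 CPM per kb in MV4-11 EV, 61.9 ± 5.13 in Molm-14 EV and 103 ± 7.78 in THP-1 EV of the knockout series (mean ± SD, n = 3). In MV4-11 EV it was followed by ID2 (17.1 ± 1.63), SEL1L3 (9.98 ± 0.475), RUNX2 (9.43 ± 2.56), TCF4 (6.74 ± 0.281) and IRF4 (5.65 ± 0.181). SEL1L3 and RUNX2 did not differ there beyond their spread, nor did SEL1L3 (31.6 ± 1.81) and ID2 (28.6 ± 2.43) in THP-1 EV. Below them came CD1D (3.97 ± 0.170), CD38 (1.71 ± 0.160), BCL11A (1.25 ± 0.128) and SPIB (0.371 ± 0.0877). In Molm-14 EV and THP-1 EV the order after IRF8 was SEL1L3, ID2, CD38 and CD1D, and IRF4 was last with 0.0882 ± 0.0397 and 0.0759 ± 0.0452 CPM per kb. In this series the lines thus shared the top gene but not the place of IRF4 and TCF4. In the overexpression series IRF8 was followed by RUNX2 (26.5 ± 0.989), IRF4 (25.7 ± 3.42) and SEL1L3 (16.6 ± 1.63) in MV4-11 EV and by ID2 (24.0 ± 0.822), SEL1L3 (13.1 ± 0.448) and BCL11A (12.5 ± 0.305) in Molm-14 EV. RUNX2 and IRF4, and SEL1L3 and BCL11A, did not differ there beyond their spread. TCF4 ranked 9 of 10 in both lines there, at 1.89 ± 0.467 and 0.577 ± 0.0131 CPM per kb.

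The baseline of the 2 FLT3-ITD lines was compared in the overexpression series, which was not the stated reason for the choice of genes. Between MV4-11 EV and Molm-14 EV, 8 of 10 genes differed at a false discovery rate (FDR) under 5% in edgeR's quasi-likelihood test, against 64.8% of all genes tested, so that a share of this size is close to the background. IRF4 had 151, 175 and 134 CPM in MV4-11 EV and 0.379, 0.120 and 0.351 CPM in Molm-14 EV, the latter from 6, 2 and 6 counts. The groups lie far apart (log2 difference 9.05, SE 0.316, edgeR FDR 2.06e-09). TCF4 was also higher in MV4-11 EV, with 54.7, 69.1 and 41.9 CPM against 16.5, 16.7 and 17.3 CPM (log2 difference 1.72, SE 0.230, edgeR FDR 9.46e-05). RUNX2 had 208, 219 and 224 CPM against 65.95, 65.7 and 68.0 CPM (log2 difference 1.70, SE 0.0514, edgeR FDR 2.18e-16). BCL11A was the opposite, with 78.7, 78.2 and 75.1 CPM in MV4-11 EV and 315, 307 and 300.3 CPM in Molm-14 EV (log2 difference -1.99, SE 0.0531, edgeR FDR 3.36e-17). SEL1L3 and CD38 were higher and ID2 and SPIB lower in MV4-11 EV by 0.34 to 0.65 on the log2 scale. The SPIB call was lost with DESeq2 (adjusted p = 0.0847), with no filter beyond 1 count (edgeR FDR 0.0703), in the fit to the 2 groups (0.0559) and without each of 4 libraries. IRF8 (log2 difference 0.47, edgeR FDR 0.0605) was called with DESeq2 (adjusted p = 0.0259), and CD1D (0.05, edgeR FDR 0.741) was not.

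The same EV comparison in the knockout series, which holds cells used for the choice and is given without a test, had other signs for the surface genes. CD38 had 10.8, 12.9 and 11.4 CPM in MV4-11 EV and 67.9, 82.8 and 77.5 CPM in Molm-14 EV (log2 difference -2.70), and SEL1L3 had 78.8, 72.7 and 72.6 CPM against 184, 183 and 191 CPM (-1.31). Both were thus lower in MV4-11 EV there and higher in the overexpression series, while IRF4 (5.93), TCF4 (3.62) and RUNX2 (1.22) were higher in MV4-11 EV in both series and BCL11A (-0.74) was lower. The series differ in vector, in depth and in mitochondrial share (0.140% to 0.452% of counts in the knockout series, 2.72% to 4.34% in the overexpression series), and their part in this was not tested.

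THP-1 EV and Molm-14 EV were compared in the knockout series, where 9 of 10 genes passed the same edgeR threshold beside 69.6% of all genes. TCF4 had 52.0, 57.4 and 59.4 CPM in THP-1 EV and 14.6, 19.1 and 13.7 CPM in Molm-14 EV, with no overlap (log2 difference 1.81, SE 0.107, edgeR FDR 2.36e-14). CD38 had 148, 145 and 151 CPM against 67.9, 82.8 and 77.5 CPM (log2 difference 0.95, SE 0.0911, edgeR FDR 4.49e-10). IRF8, SEL1L3, CD1D, RUNX2 and ID2 were higher in THP-1 EV as well, and BCL11A and SPIB were lower. The BCL11A groups overlapped, and its call (log2 difference -0.61, edgeR FDR 0.0183) was lost without Molm-14 EV replicate 2 (edgeR FDR 0.130). IRF4 was near the counting floor in both lines, at 0.665, 0.150 and 0.544 CPM in THP-1 EV, where 3 counts correspond to 0.399 to 0.544 CPM.

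MV4-11 KO is the contrast that chose the genes, so its values are a description. TCF4 had 192, 206 and 191 CPM in MV4-11 EV and 354, 335 and 327 CPM in MV4-11 KO (log2 change 0.78). IRF4 had 34.2, 32.4 and 34.4 CPM and then 82.2, 80.4 and 81.8 CPM (log2 change 1.27). Both genes sat in narrow bands that did not overlap between the groups. SEL1L3 went from 78.8, 72.7 and 72.6 CPM to 151, 141 and 135 CPM (log2 change 0.93). CD38 went from 10.8, 12.9 and 11.4 CPM to 22.5, 16.4 and 21.1 CPM (log2 change 0.77), and was the lowest of the surface genes per kilobase in MV4-11 EV of this series. These 4 are the genes that the choice was based on.

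The other 6 genes were placed beside them by name. IRF8 had 887, 745 and 752 CPM in MV4-11 EV and 965, 993 and 927 CPM in MV4-11 KO (log2 change 0.27). CD1D had 16.8, 18.2 and 16.96 CPM against 29.2, 26.1 and 23.1 CPM (log2 change 0.59), and ID2 had 41.9, 35.1 and 36.4 CPM against 61.4, 55.5 and 50.9 CPM (log2 change 0.56). All 3 were higher in KO with no overlap. BCL11A had 28.2, 34.2 and 29.6 CPM in MV4-11 EV and 17.5, 15.9 and 20.7 CPM in MV4-11 KO (log2 change -0.76) and was lower with no overlap. RUNX2 (log2 change -0.18) and SPIB (0.45) overlapped between the groups. In all, 7 of 10 genes were higher, the inhibitor ID2 among them, and 1 lower without overlap, where 15% and 9.1% of all genes tested were. Nothing is read from these shares, since this contrast made the choice. Among partners, SPI1 (PU.1) had 52.1, 61.4 and 70.8 CPM in MV4-11 EV and 38.4, 47.4 and 47.5 CPM in MV4-11 KO, lower without overlap, while the E proteins TCF3 and TCF12 overlapped.

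**Figure D1:**
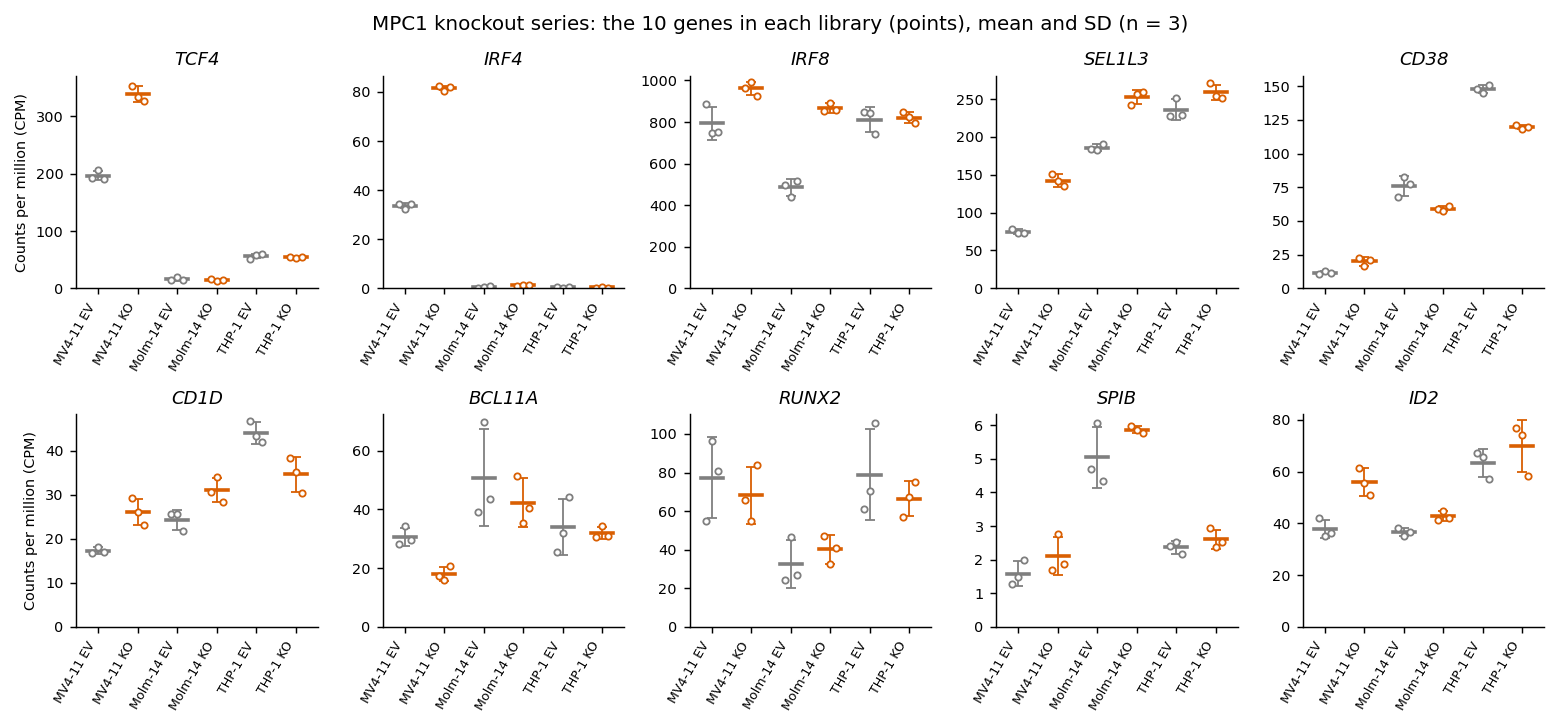
Level of each gene in the MPC1 knockout series, in CPM on a linear axis from 0. Points are the 3 libraries of a group, bars the mean and SD, gray EV and orange KO. IRF4 is near 0 outside MV4-11, TCF4 is highest in MV4-11 KO (327 to 354 CPM), and IRF8 in Molm-14 KO (851 to 894 CPM) lies above Molm-14 EV (441 to 518 CPM).

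Molm-14 KO was not the stated reason for the choice, though earlier results of these data were known when the genes were picked. It asks whether the same genes move in the other FLT3-ITD line. Of the 10 genes, 3 passed the edgeR threshold in Molm-14 KO against EV, 2 higher and 1 lower, where 2.4% of all genes passed. IRF8 had 499, 441 and 518 CPM in Molm-14 EV and 851, 894 and 860.2 CPM in Molm-14 KO. Every KO library was above every EV library (log2 change 0.84, SE 0.0826, edgeR FDR 1.40e-07), and the call held in all 6 fits that left out 1 library and in all 5 other alternatives. SEL1L3 had 184, 183 and 191 CPM in Molm-14 EV and 243, 257 and 259 CPM in Molm-14 KO, again apart (log2 change 0.44, SE 0.0719, edgeR FDR 2.99e-04), and its call held in the same alternatives.

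CD38 fell in Molm-14 KO. It had 67.9, 82.8 and 77.5 CPM in EV and 59.1, 57.1 and 61.3 CPM in KO (log2 change -0.37, SE 0.0943, edgeR FDR 0.0304). The groups did not overlap, but the call was lost with no filter beyond 1 count (edgeR FDR 0.0619) and in 5 of 6 fits without 1 library (up to 0.221, without Molm-14 EV replicate 2). The sign is the opposite of its change in MV4-11 KO (0.77), a difference that was not tested because MV4-11 KO chose the gene.

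The remaining 7 genes did not pass in Molm-14 KO. IRF4 was at 2, 4 and 6 counts in Molm-14 EV and 7, 10 and 8 counts in Molm-14 KO, or 0.336 to 0.791 CPM and 1.10 to 1.33 CPM (log2 change 1.18, SE 0.390, edgeR FDR 0.246). These libraries did not overlap, yet a difference of a few counts is weakly determined at this depth. TCF4 was low in both groups, with 14.6, 19.1 and 13.7 CPM in EV and 16.2, 13.3 and 13.9 CPM in KO (log2 change -0.15, SE 0.123, edgeR FDR 0.773). CD1D had 25.7, 25.5 and 21.8 CPM in EV and 30.7, 33.9 and 28.4 CPM in KO (log2 change 0.35, SE 0.117, edgeR FDR 0.140), and ID2 had 38.3, 35.2 and 36.7 CPM in EV and 41.3, 44.8 and 42.0 CPM in KO (log2 change 0.22, SE 0.111, edgeR FDR 0.494). SPIB had 4.71, 6.08 and 4.35 CPM in EV and 5.99, 5.85 and 5.78 CPM in KO, with overlap. BCL11A and RUNX2 overlapped as well.

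In THP-1 KO none of the 10 genes passed edgeR's threshold, where 0.0897% of all genes did. At an unadjusted p under 0.05 there were 2, where 8.01% of all genes were, and DESeq2 called 0. CD38 had 148, 145 and 151 CPM in THP-1 EV and 121, 118 and 120.0 CPM in THP-1 KO (log2 change -0.30, SE 0.0895, edgeR FDR 0.337). CD1D had 46.7, 43.2 and 41.9 CPM in EV and 38.4, 35.0 and 30.3 CPM in KO (log2 change -0.34, SE 0.112, edgeR FDR 0.389). Both were lower in all 3 KO libraries than in any EV library. IRF8 had 849.8, 843 and 741 CPM in EV and 846, 824 and 793 CPM in KO (log2 change 0.02, SE 0.0818), and TCF4 had 52.0, 57.4 and 59.4 CPM and 54.1, 53.3 and 54.8 CPM (log2 change -0.06, SE 0.0962), each with overlap. SEL1L3 (log2 change 0.13, SE 0.0716) and ID2 (0.14, SE 0.105) overlapped too.

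The difference of the knockout effect between Molm-14 and THP-1 was itself a contrast of the edgeR fit. IRF8 and CD1D differed, which is 2 of 10 genes beside 0.766% of all genes. The effect on IRF8 was larger in Molm-14 by 0.82 on the log2 scale (SE 0.116, edgeR FDR 1.85e-04), and this held in all 12 fits without 1 library. The effect on CD1D was larger in Molm-14 by 0.70 (SE 0.162, edgeR FDR 0.0304), with a positive change in Molm-14 and a negative one in THP-1, but the call was lost in 7 of these 12 fits (edgeR FDR up to 0.141, without Molm-14 EV replicate 3). The difference for SEL1L3 was 0.31 (SE 0.101, edgeR FDR 0.242) and that for CD38 -0.07 (SE 0.130, edgeR FDR 0.986).

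**Figure D2:**
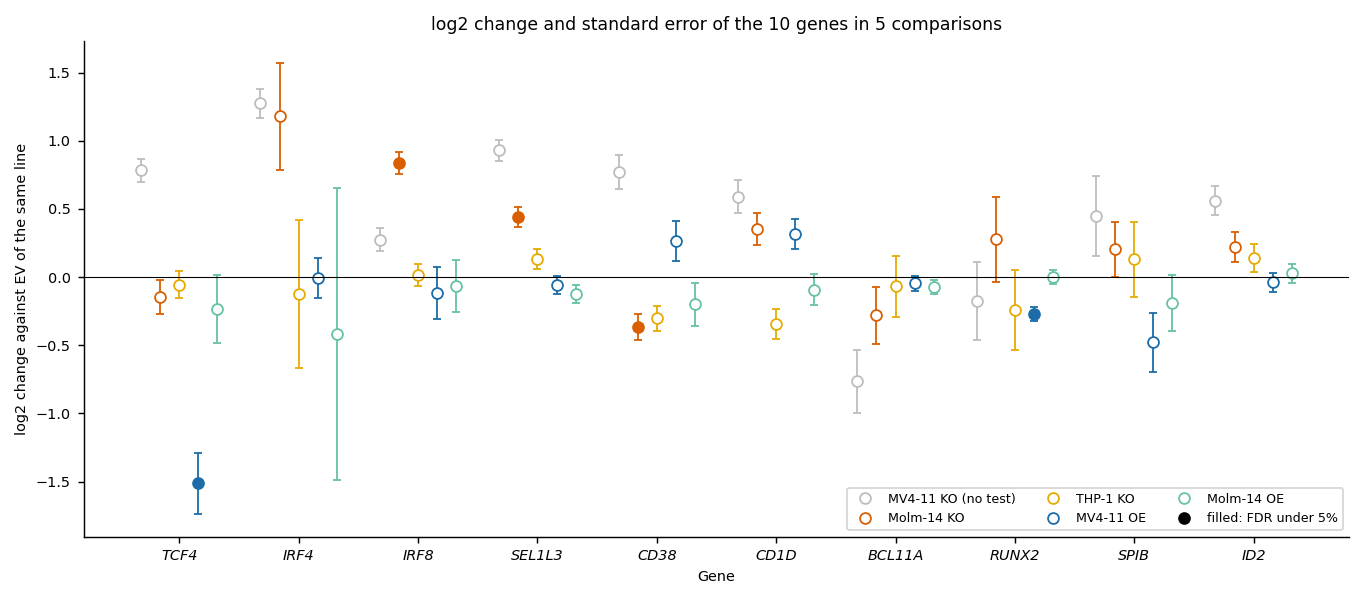
log2 change of each gene against the EV group of its line, with its standard error, in 5 comparisons (colors). Filled points have an edgeR FDR under 5%, and MV4-11 KO (gray) was not tested. The filled points are IRF8, SEL1L3 and CD38 in Molm-14 KO and TCF4 and RUNX2 in MV4-11 OE.

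BCL11A and RUNX2 varied within EV groups of the knockout series, and the nuclear noncoding RNA MALAT1, looked at after the values were seen, varied with them. In Molm-14 EV, BCL11A had 39.0, 69.5 and 43.6 CPM and RUNX2 had 24.2, 46.7 and 26.9 CPM, while MALAT1 had 820.1, 1921 and 1043 CPM. In THP-1 EV, BCL11A had 25.5, 32.0 and 44.2 CPM, RUNX2 had 60.9, 70.3 and 106 CPM, and MALAT1 had 3608, 4063 and 6414 CPM. The library highest in MALAT1 was the highest in both genes in each of these groups and in MV4-11 EV, where MALAT1 had 1122, 2263 and 1860.0 CPM. In MV4-11 KO, where BCL11A was lower, MALAT1 had 748, 672 and 1247 CPM. RUNX1, the relative of RUNX2, had 152, 251 and 209.9 CPM in MV4-11 EV and was highest in the same library as well. The part of this variation in the BCL11A and RUNX2 values was not tested. In the overexpression series MALAT1 ran from 3506 to 5204 CPM and both genes were tight within groups.

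**Figure D3:**
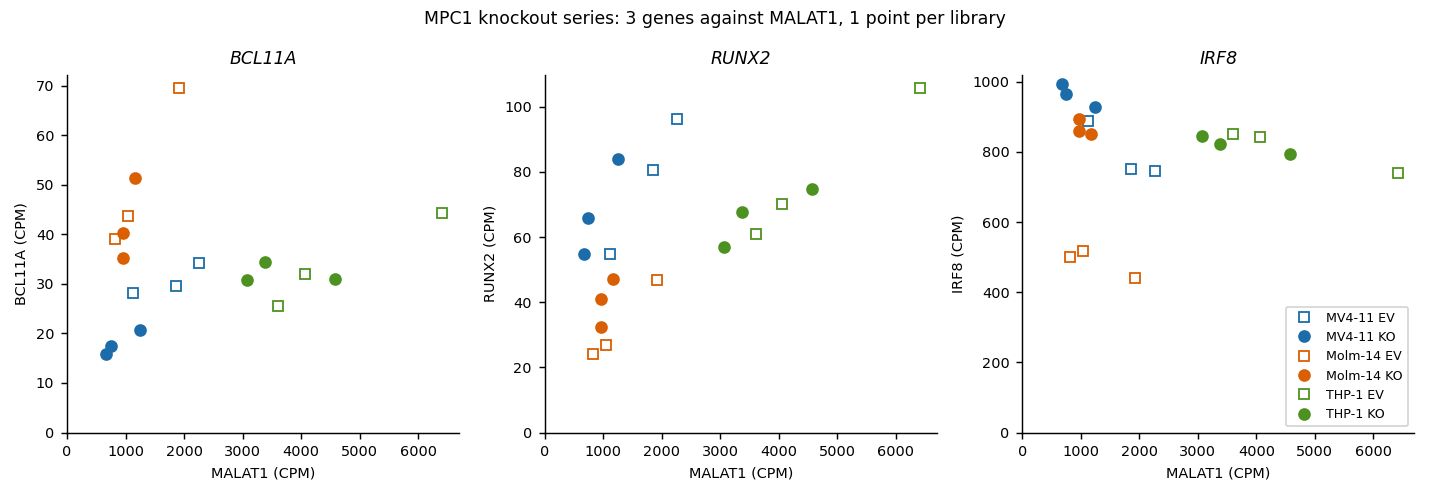
BCL11A, RUNX2 and IRF8 against MALAT1 in the 18 libraries of the knockout series, all in CPM on linear axes from 0. Squares are EV, filled circles KO, and colors the cell lines. BCL11A and RUNX2 are highest in the EV library of each line that is highest in MALAT1, and IRF8 is 441 to 518 CPM in Molm-14 EV and 851 to 894 CPM in Molm-14 KO.

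The overexpression series asks what miR-1 changes. In MV4-11 OE against EV, 2 of 10 genes passed the edgeR threshold, both lower, where 0.177% of all genes passed. TCF4 had 54.7, 69.1 and 41.9 CPM in MV4-11 EV and 12.96, 21.0 and 24.1 CPM in MV4-11 OE. All OE libraries were below all EV libraries (log2 change -1.51, SE 0.225, edgeR FDR 0.0465), which is opposite in sign to its change in MV4-11 KO (0.78), though the 2 series have separate EV groups and the difference was not tested. RUNX2 had 208, 219 and 224 CPM in EV and 184, 175 and 180.0 CPM in OE, with no overlap (log2 change -0.27, SE 0.0489, edgeR FDR 0.0226).

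Both calls changed with the settings of the fit and with the libraries kept. TCF4 was no longer called without MV4-11 EV replicate 1 (edgeR FDR 0.145) or MV4-11 OE replicate 2 (0.180), nor with no filter beyond 1 count (0.0544) or when edgeR was fitted to these 6 libraries alone (0.709), while its log2 change stayed between -1.69 and -1.30. RUNX2 was no longer called without any of 4 libraries (MV4-11 EV replicate 2 or 3, MV4-11 OE replicate 2 or 3; edgeR FDR 0.0572 to 0.130) or in the fit to the 6 libraries alone (0.366). The library of each group with high interferon-stimulated genes was the lowest of its group for TCF4, at 12.96 CPM in MV4-11 OE replicate 1 and 41.9 CPM in MV4-11 EV replicate 3. Without these 2 libraries the TCF4 change was -1.46 (SE 0.103, edgeR FDR 4.09e-11) and that of RUNX2 was -0.26 (SE 0.0508, edgeR FDR 0.00597), about as large as with them. This fit had 1 library fewer in each MV4-11 group. Leaving out the lowest TCF4 library of each group makes the TCF4 spread smaller by itself. The lower FDR of TCF4 is therefore no further support for its call.

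The other 8 genes did not pass in MV4-11 OE. IRF8 had 545, 601 and 392 CPM in EV and 350.1, 512 and 559 CPM in OE, and its lowest value in each group was again the library with high interferon-stimulated genes. IRF4, near 0 in Molm-14, had 151, 175 and 134 CPM in EV and 128, 156 and 174 CPM in OE and overlapped fully (log2 change -0.01, SE 0.149). CD1D had 12.7, 16.1 and 17.3 CPM in EV and 18.2, 20.6 and 18.5 CPM in OE, higher without overlap but not called (log2 change 0.31, SE 0.109, edgeR FDR 0.521). SPIB had 2.95, 2.60 and 4.01 CPM in EV and 2.45, 2.17 and 2.22 CPM in OE, lower without overlap but not called (log2 change -0.48, SE 0.217, edgeR FDR 0.810). CD38 had 46.7, 53.0 and 69.6 CPM in EV and 76.9, 70.6 and 56.0 CPM in OE, with overlap (log2 change 0.27, SE 0.147). BCL11A, which has the 8mer printed above, had 78.7, 78.2 and 75.1 CPM in EV and 72.5, 71.2 and 81.0 CPM in OE (log2 change -0.05, SE 0.0533, edgeR FDR 1), also with overlap.

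In Molm-14 OE none of the 10 genes passed in edgeR, beside 0.0057% of all genes, which is 1 gene of 17542. No gene of the 10 had an unadjusted p under 0.05, and DESeq2 called 0. TCF4 had 16.5, 16.7 and 17.3 CPM in EV and 13.1, 15.7 and 14.2 CPM in OE (log2 change -0.23, SE 0.247, edgeR FDR 1). BCL11A had 315, 307 and 300.3 CPM in EV and 287, 291 and 298 CPM in OE (log2 change -0.07, SE 0.0503, edgeR FDR 1), and IRF8 had 364, 375 and 375 CPM in EV and 346, 356 and 361 CPM in OE (log2 change -0.07, SE 0.192, edgeR FDR 1). SEL1L3 had 96.4, 96.3 and 102.1 CPM in EV and 87.0, 88.8 and 95.3 CPM in OE, and CD38 had 35.8, 32.3 and 39.6 CPM in EV and 30.9, 30.9 and 32.2 CPM in OE. These 5 of 10 genes were lower in all OE libraries than in any EV library, where 7.07% of all genes were, by 0.07 to 0.23 on the log2 scale. RUNX2 was at 65.95, 65.7 and 68.0 CPM in EV and 70.4, 65.1 and 64.3 CPM in OE (log2 change 0.00, SE 0.0523), with overlap.

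The difference of the miR-1 effect between MV4-11 and Molm-14 was called for 0 of 10 genes in edgeR, beside 0.0456% of all genes, with 3 of 10 at an unadjusted p under 0.05, where 5.3% of all genes were. DESeq2 called 1, TCF4 (log2 difference -1.29, adjusted p = 0.00352). In edgeR the TCF4 difference was -1.28 (SE 0.334, FDR 0.627), and without the 2 libraries with high interferon-stimulated genes it was -1.22 (SE 0.145, FDR 1.00e-05). Those 2 libraries were the lowest for TCF4 in their groups, so the smaller SE is partly built in. The RUNX2 difference was -0.27 (SE 0.0716, edgeR FDR 0.456).

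**Figure D4:**
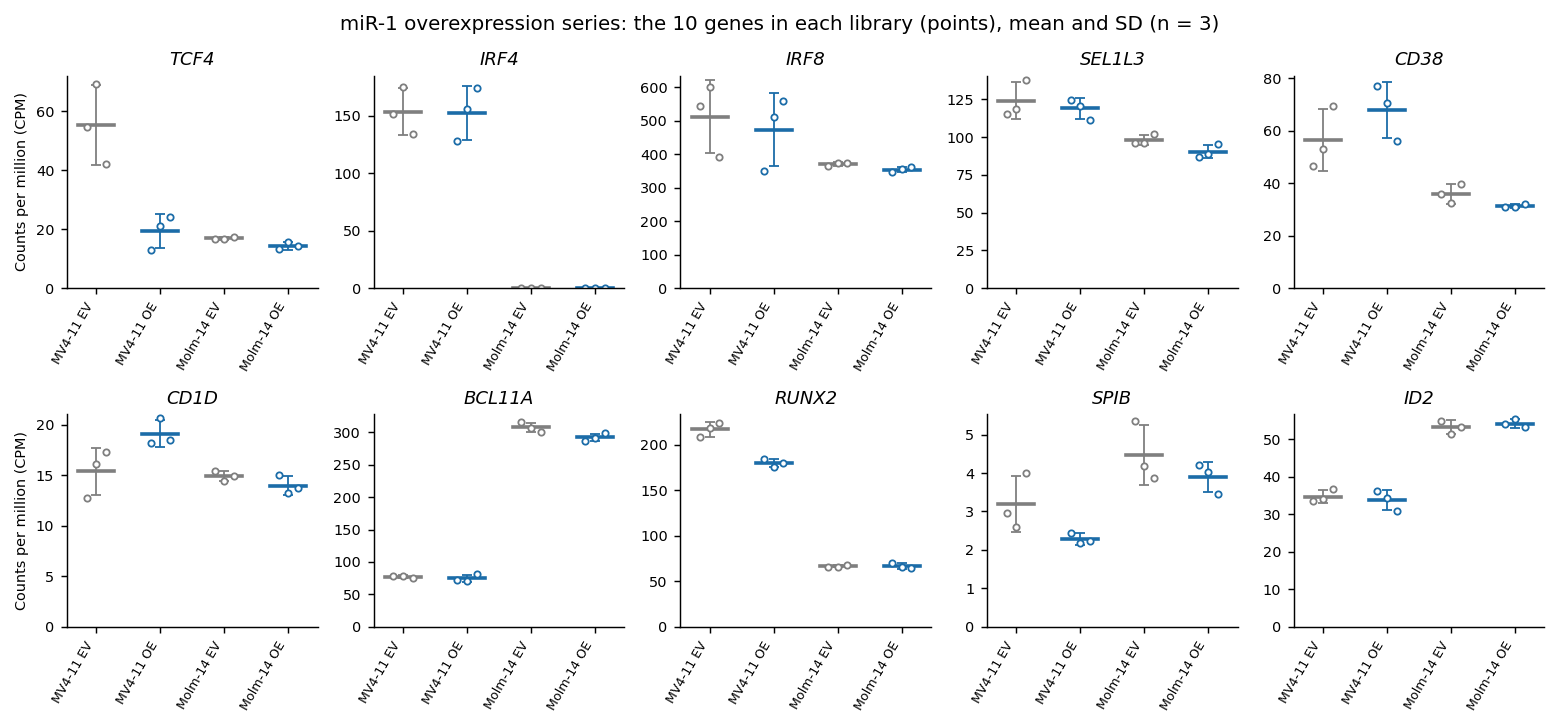
Level of each gene in the miR-1 overexpression series, in CPM on a linear axis from 0. Points are the 3 libraries of a group, bars the mean and SD, gray EV and blue OE. TCF4 in MV4-11 OE (12.96 to 24.1 CPM) lies below MV4-11 EV (41.9 to 69.1 CPM), and IRF4 is near 0 in Molm-14.

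The partners of these factors were read from a list chosen with the genes. TCF3, TCF12, ID1, ID3, SPI1, IRF7, CBFA2T3, RUNX1, BST1 and SEL1L, which are dimer partners, cofactors and close relatives of the 10 genes, passed edgeR's threshold in 0 of the 4 tested KO or OE comparisons. At an unadjusted p under 0.05 there was ID1 in Molm-14 OE alone (log2 change -0.38, edgeR FDR 1). LMO2, an adaptor of E protein complexes, was higher in Molm-14 KO, with a mean of 78.6 CPM in EV and 101 CPM in KO (log2 change 0.36, SE 0.0809, edgeR FDR 0.0108).

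Other genes of the plasmacytoid dendritic list mostly had positive log2 changes in Molm-14 KO, as IRF8 had, but few were called. Of 24 listed genes 15 were tested, and 2 were higher and 0 lower by edgeR, where 2.4% of all genes were called in either direction. They were NRP1, a semaphorin receptor, with a mean of 39.2 CPM in EV and 59.6 CPM in KO (log2 change 0.60, edgeR FDR 3.94e-04), and LAMP5, a lysosome-related membrane protein, with 207 and 257 CPM (log2 change 0.31, SE 0.0779, edgeR FDR 0.0257). Of the 15 tested, 12 had a positive log2 change and 3 a negative one. At an unadjusted p under 0.05 in edgeR there were 7, where 10.7% of all genes were. The list had a median log2 change of 0.27, where the median of all genes tested was 0. This was not particular to the plasmacytoid list. The 7 conventional dendritic genes tested had a median of 0.38, with 5 positive and 2 negative. The 11 IRF family genes tested had a median of 0.08, with 9 positive and 2 negative. The median was -0.10 for the E protein and ID partners (2 positive, 6 negative) and for the myeloid genes (7 positive, 9 negative). Of 10 B lineage genes tested 1 was lower, beside the same 2.4% of all genes, the surrogate light chain gene IGLL1, with 4.23 and 1.55 CPM (log2 change -1.39, SE 0.309, edgeR FDR 0.0106). The B lineage list had a median of 0.05, with 2 genes at an unadjusted p under 0.05.

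Myeloid genes moved in both directions in the same comparison. Of 16 tested, 3 were higher and 2 lower in Molm-14 KO, again beside 2.4% of all genes. At an unadjusted p under 0.05 there were 8, beside 10.7% of all genes. The higher ones were LYZ (lysozyme, 321 and 626 CPM, log2 change 0.96, edgeR FDR 8.32e-07) and the calprotectin genes S100A9 (1.15, edgeR FDR 2.99e-04) and S100A8 (1.08, edgeR FDR 3.43e-04). The lower ones were the granule enzymes MPO (85.9 and 39.7 CPM, log2 change -1.11, edgeR FDR 3.41e-08) and PRTN3 (-0.61, edgeR FDR 0.00287). Of 28 interferon-stimulated genes 3 were lower and 0 higher, beside the same 2.4% (IFITM1, OAS3 and HERC5, log2 changes -1.61 to -0.62). Of these 28 genes, 7 had an unadjusted p under 0.05. Their part in the IRF8 change was not tested. Of 7 conventional dendritic, 11 IRF family and 4 plasma cell genes edgeR called 0, with 3, 1 and 0 at an unadjusted p under 0.05, which 10.7% of all genes reached. In THP-1 KO, S100A8 alone of the myeloid list was called (log2 change 0.59, SE 0.121, edgeR FDR 0.0495). In both OE comparisons no gene of the plasmacytoid, B lineage or myeloid lists was called by edgeR, while in MV4-11 OE 4 of 15, 2 of 9 and 3 of 17 genes had an unadjusted p under 0.05, beside 5.9% of all genes. In Molm-14 OE 2, 0 and 3 of them did, beside 4.38% of all genes.

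Genes with a pattern like TCF4, IRF4 or IRF8 were sought among 10715 genes with a mean of at least 5 CPM over the 18 knockout libraries, by Pearson's r of log2 CPM after the mean of each line was taken off. These values describe libraries that share depth and groups, and they include the MV4-11 KO contrast. CCR2 (r = 0.99), MS4A6A (0.98) and CCR1 (0.97) were most like IRF8, and all 3 had larger log2 changes in Molm-14 KO (1.05 to 1.18) than in MV4-11 KO (0.28 to 0.53). CCR2 and CCR1 are chemokine receptors of monocytes. For TCF4 these were DENND1B (0.88), SLC38A1 (0.87) and MTA3 (0.84), and for IRF4 they were ETS2 (0.88), LPAR1 (0.86) and ABCD2 (0.86). IRF4 itself correlated with SEL1L3 at 0.85, and TCF4 with CD38 at 0.83 but with IRF8 at 0.07. TCF4, IRF4, CD38 and SEL1L3 were chosen because they rise in MV4-11 KO, so a high r among them is partly built in. IRF4 had at most 10 counts in any Molm-14 or THP-1 library of this series, close to the counting floor.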

How the data were processed

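RNA was sequenced from 30 libraries of AML cell lines, 3 per group, and what was deposited was 1 table of raw counts for each series, by Ensembl gene. Per the labels and methods, the authors extracted RNA with a miRNeasy kit, made stranded total RNA libraries with ribosomal depletion, trimmed reads with cutadapt 1.16, removed optical duplicates, aligned to GRCh38 with STAR 2.7.6a and counted reads with featureCounts 1.6.3. The submitters' processing notes also name DESeq2 1.30.1. The sources do not say if counting was stranded, so antisense overlaps of TCF4 and ID2 and the 839 exon bases that SPIB shares with a gene on the same strand could hold reads of both.

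Here, symbols and positions came from GENCODE on GRCh38, which held 60419 of 60675 gene IDs in the overexpression series and 56948 of 58051 in the knockout series. Genes were filtered with filterByExpr (17542 and 14490 tested), scaled by TMM and fitted in edgeR 4.0.16 (R 4.3.3) with the robust quasi-likelihood model, in which each group had its own mean and a series was fitted as a whole. P-values were adjusted over all genes by the Benjamini-Hochberg method, with calls at an FDR under 5%. SE is the log2 change divided by the square root of F. CPM used TMM-scaled library sizes, and values per kilobase used the union of exons. DESeq2 1.42.0, RLE scaling, no filter beyond 1 count, a replicate block, fits to 2 groups and fits without 1 library were alternatives. The fits were also run on simulated counts. These had 1 mean per gene over a series apart from the changed genes. They thus did not mimic differences between lines or the libraries with high interferon-stimulated genes. Floors of 3 counts cover counting error only. The named genes are the 10 genes, MPC1, 10 partners, up to 5 called genes of each list with the largest change, and the 3 genes most like TCF4, IRF4 and IRF8. MALAT1 was named after its values were seen. The members and lists were chosen with earlier results of these data known. Replicates of a group differed by more than counting noise (chi-square per degree of freedom 1.50 to 15.8), and all were kept.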

Additional observations from a re-analysis of the deposited data

Results flagged for a closer look

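The effect of MPC1 loss on IRF8 and on CD1D differed between Molm-14 and THP-1 by a test of the difference itself in edgeR. For IRF8 the log2 change in Molm-14 exceeded that in THP-1 by 0.82 (SE 0.116, edgeR FDR 1.85e-04), with mean levels of 486 CPM in EV and 868 CPM in KO in Molm-14 and of 811 and 821 CPM in THP-1. For CD1D the difference was 0.70 (SE 0.162, edgeR FDR 0.0304), with 24.3 and 31.0 CPM in Molm-14 and 43.9 and 34.6 CPM in THP-1. The IRF8 difference held in every fit without 1 library, and the CD1D difference did not.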

How the results depend on the processing

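In MV4-11 OE, 2 of the 10 genes were called, against 1 with no filter beyond 1 count, 0 in the fit to the 2 groups compared, 0 with the replicate block and 0 to 2 without 1 library. The cause was not tested beyond the fewer libraries in the fit to 2 groups. The difference of the OE effect between lines had 0 calls, against 1 with DESeq2 and 1 without the 2 libraries with high interferon-stimulated genes. The difference of the KO effect between Molm-14 and THP-1 had 2 calls, and 1 to 2 without 1 library. Replicate numbers were not taken to pair the samples, since same-numbered libraries correlated at -0.377 to 0.330 and every line had a number under 0.1. This is less clear for THP-1, where same-numbered libraries correlated at 0.179, 0.0987 and 0.330. The block ended the calls of TCF4 (edgeR FDR 0.216) and RUNX2 (0.328) in MV4-11 OE, of CD38 in Molm-14 KO (0.0611) and of SPIB in MV4-11 EV against Molm-14 EV of the overexpression series (0.0648).

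Counts over all genes moved more. MV4-11 OE had 31 called genes, against 65 with DESeq2, 123 with no filter, 72 without the interferon-high libraries, 15 with the block, 9 in the fit to 2 groups and 12 to 45 without 1 library. Molm-14 OE had 1, against 5, 7 and 2 with DESeq2, no filter and the block, and 195 in the fit to 2 groups. Molm-14 KO had 348, and 184 to 292 without 1 library. THP-1 KO had 13, against 26 with DESeq2, 30 with no filter, 4 in the fit to 2 groups and 3 to 8 without 1 library. The OE difference had 8, against 14 with DESeq2, 33 with no filter, 26 without the interferon-high libraries, 2 with the block and 4 to 9 without 1 library. No called value of the 10 genes changed sign under any of these alternatives. Depth limits IRF4 outside MV4-11, where 3 counts equal 0.147 to 0.544 CPM.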
